A study of Caenorhabditis elegans with 10 samples.

Results

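The *C. elegans* genes *paqr-2*, *iglr-2*, *sbp-1*, *mdt-15*, *nhr-49*, *nhr-80*, and *pod-2*, which regulate membrane fluidity or fat synthesis, were followed at the mRNA level during cooling. These 7 genes were chosen by gene name, and all of their annotated transcripts were taken, which gave 24 of 31865 transcripts and 7 of 19985 genes. The animals were wild-type (N2) worms, collected whole, and were young adults (first day of adulthood) grown at 20°C on OP50 bacteria when cooling began. The 20°C animals were collected at that time and the 4°C animals days later. There is no 20°C sample of a later day, so cold and elapsed time cannot be told apart. The conditions were 20°C, 10°C (the adaptation step, 2 hr in the protocol and 3 hr in the treatment label), and day 1, day 3, or day 5 at 4°C, which animals reached through the 10°C step. For day 5 the sample titles give 5 days and the treatment label 3 days. Total RNA from 2 biological replicates per condition, 10 samples in all, was sequenced.

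Worm membranes stiffen in the cold unless their lipids become more unsaturated or otherwise more fluid. In the worm, PAQR-2, a membrane protein related to the mammalian adiponectin receptors, and its partner IGLR-2 act together in response to membrane rigidity and promote fatty acid desaturation. The transcription factor SBP-1 (the worm SREBP), the nuclear receptors NHR-49 and NHR-80, and the coactivator MDT-15, a subunit of the Mediator complex, control genes for desaturases and other lipid enzymes. POD-2 is acetyl-CoA carboxylase, which makes the malonyl-CoA from which fatty acids are built.

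Levels are given in FPKM (fragments per kilobase of exon, scaled to the total reads of its column), so that they can be compared between genes as well as between conditions. Each condition has 1 deposited column, taken here to pool its 2 replicates, so the spread between replicates is unknown and no difference was tested. The 95% limits below (Wilson limits for levels) cover counting error only. The columns held between 70741449 reads on transcripts at day 5 and 85103831 at day 1. A change is the log2 ratio of FPKM + 0.1, taken on the transcript of a gene with the highest mean FPKM, and is called at 2-fold. All 24 transcripts of the 7 genes reached an FPKM of 1 in some condition and so passed the filter on low values, as did 10509 genes in all. Because whole animals were used, fewer cells of a type and less RNA per cell cannot be told apart.

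The 7 genes ranged from *iglr-2* and *nhr-49*, whose mRNA hardly moved, to *sbp-1*, *nhr-80*, and *pod-2*, which were low by day 5. *paqr-2* and *mdt-15* lay between these. Over the 5 conditions, *iglr-2* and *nhr-49* had highest levels 1.1 and 1.14 times their lowest. The range was 1.34-fold for *paqr-2* and 1.54-fold for *mdt-15*. *sbp-1*, *nhr-80*, and *pod-2* spanned 2.58-fold, 2.71-fold, and 3.25-fold, and 5 of the 7 genes, all but *iglr-2* and *nhr-49*, had their lowest value at day 5. No gene was called higher in any of the 7 comparisons made. On the log2 scale the median range of all genes past the filter was 0.59. Of those genes, 2.04% had a narrower range than *iglr-2* and 5.42% a narrower range than *nhr-49*, whereas 83.5% had a narrower range than *pod-2*.

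**Figure D1:**
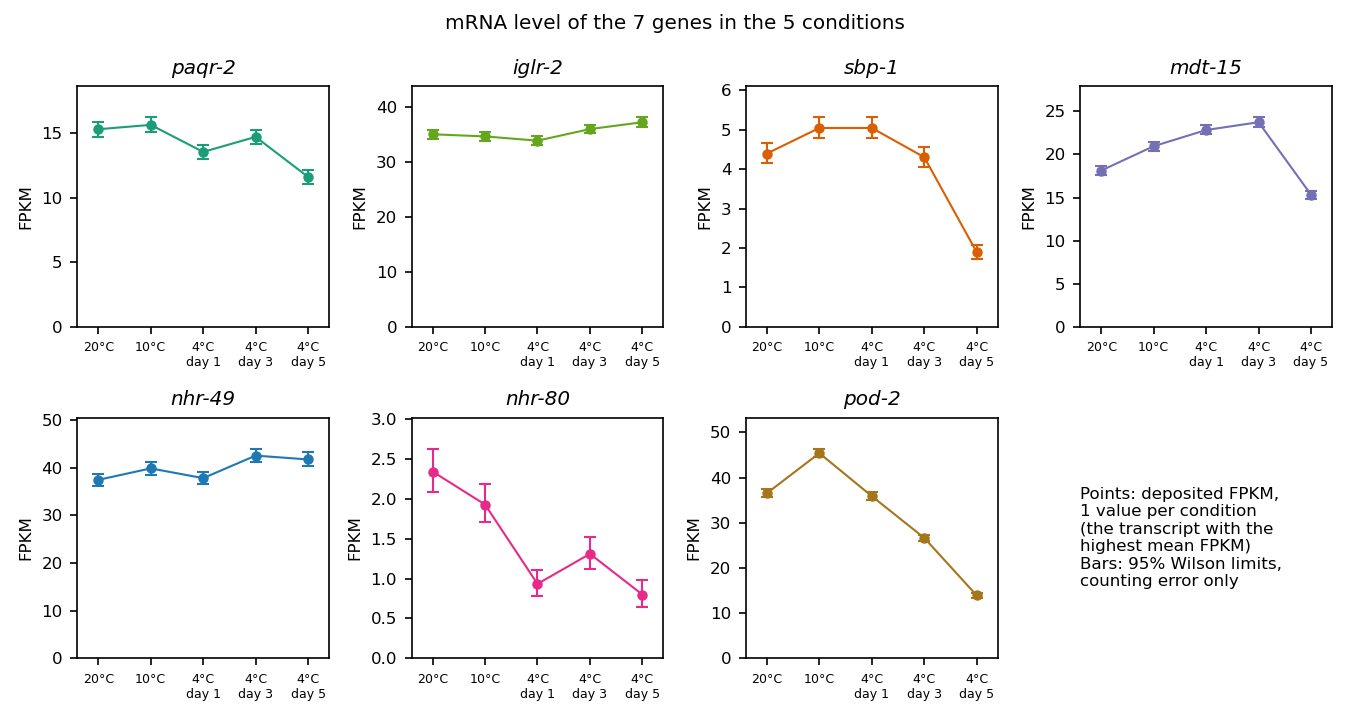
mRNA level of each of the 7 genes in FPKM (vertical axes start at 0 and differ between panels) at 20°C, 10°C, and day 1, 3, and 5 at 4°C. Points are the single deposited value per condition for the transcript with the highest mean FPKM, and bars are 95% Wilson limits for counting error only. *sbp-1* and *pod-2* stand at 1.9 and 13.9 FPKM at day 5, their lowest values, while *iglr-2* stays between 33.9 and 37.3 FPKM.

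The mRNAs of the fluidity sensor pair stayed within 2-fold in every comparison. *paqr-2* (WBGene00021313, WBcel235 chromosome III, 5375699 to 5379929, minus strand) has 1 transcript of 8 exons, which encodes 581 residues. Its level was 15.3 FPKM at 20°C, 15.7 at 10°C, and 13.6, 14.7, and 11.6 on days 1, 3, and 5 at 4°C. The day-5 value, counted from 1828 reads, was the lowest, and its limits of 11.1 to 12.2 FPKM did not overlap those of the other conditions. Relative to 20°C this was a log2 ratio of −0.40 (95% limits −0.48 to −0.31), or 0.76 times the level, short of the 2-fold threshold. Relative to day 3 the day-5 ratio was −0.34 (−0.43 to −0.25).

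*iglr-2* (WBGene00022580, chromosome III, 8326512 to 8331311, minus strand) encodes the transmembrane partner of PAQR-2, with leucine-rich repeats and an immunoglobulin domain. Its level was 35.1, 34.7, 33.9, 36.0, and 37.3 FPKM in the same order of conditions. The day-5 value was thus the highest and the day-1 value the lowest, with a ratio between day 5 and 20°C of 0.09 (0.04 to 0.13). The difference between *paqr-2* and *iglr-2* in this ratio was −0.48, and at day 1 it was −0.13. Of the exonic bases of *iglr-2*, 6.74% overlap a gene on the same strand and 5.04% a gene on the other strand, and the use of strand in counting is not given in the sources used here. No exonic base of *paqr-2* overlaps another gene.

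Some of the other genes tied to *paqr-2* had far larger ratios than the sensor pair. *paqr-1*, a paralog, remained between 28.9 and 31.6 FPKM, and *paqr-3* was below the filter, at 0.302 FPKM or less. Among 6 genes known as genetic modifiers of *paqr-2* mutants, 2 were called lower at day 1 against 10°C, beside 5.42% of all genes, and none higher, with a median of −0.42 beside −0.09 for all genes. These were *hacd-1*, encoding a hydroxyacyl-CoA dehydrogenase, at 1.06 FPKM at day 1, against 43.4 FPKM at 10°C (log2 ratio −5.23), and *cept-1*, encoding a choline/ethanolamine phosphotransferase, at 2.66 FPKM, against 8.77 FPKM at 10°C (−1.68). *pcyt-1*, for a nucleotide-transfer enzyme of phosphatidylcholine synthesis, joined them relative to 20°C at day 1 (−1.02). There 3 of the 6 were called lower, beside 7.32% of all genes. At day 5 against 20°C *pcyt-1* had −0.95 and was not called. *fld-1*, *acs-13*, and *nduf-7* lay between −0.30 and 0.30 at day 5 against 20°C.

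*sbp-1* (WBGene00004735, chromosome III, 11428367 to 11442566, minus strand) is the worm gene for the sterol regulatory element binding protein, the transcription factor that turns on fat synthesis genes. It has 1 transcript of 13 exons, encoding 1113 residues. Its level was 4.4 FPKM at 20°C, 5.05 at 10°C, and 5.05, 4.31, and 1.9 on days 1, 3, and 5 at 4°C. It was therefore within 2-fold through day 3 and low at day 5, where 455 reads were counted, against 1177 at day 3. The smaller changes before day 5 were 0.19 (0.08 to 0.30) at 10°C against 20°C and −0.22 (−0.33 to −0.12) at day 3 against day 1. The log2 ratio was −1.14 (−1.30 to −0.99) at day 5 against day 3 and −1.17 (−1.33 to −1.02) against 20°C, and both were called. Of the 10509 genes, 3.33% had a lower ratio at day 5 against day 3. The 2-fold threshold lies inside the limits of the ratio of day 5 to day 3. Both calls were lost with a pseudocount of 1 (−0.87 against day 3 and −0.90 against 20°C) and when the median of transcripts of like length (−0.99 and −0.96) or of like mean FPKM (−0.90 and −0.89) was subtracted.

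SBP-1 is made as a membrane-bound precursor. Of 4 genes listed for its processing or for the membrane traffic and phosphatidylcholine signal that control it, 3 matched by name, and none was called in any comparison. *scp-1*, the worm SCAP, which escorts the precursor, had a ratio of 0.09 at day 5 against day 3. *gbf-1*, for an activator of Arf GTPases, had −0.44, and *lpin-1*, for lipin, had −0.43. The median of the list was −0.43, beside 0.02 for all genes.

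*mdt-15* (WBGene00007016, chromosome III, 5828557 to 5833751, minus strand) encodes the Mediator subunit that both SBP-1 and NHR-49 bind. Its level was 18.1 FPKM at 20°C, 20.96 at 10°C, and 22.8, 23.7, and 15.3 on days 1, 3, and 5 at 4°C. Each value through day 3 exceeded the one before, with overlapping limits for day 3 and day 1, and the day-5 value was the lowest. The log2 ratio to 20°C was 0.39 (0.34 to 0.44) at day 3 and −0.24 (−0.30 to −0.18) at day 5, and the sign of the day-5 ratio turned, to 0.13, when the median of transcripts of like length was subtracted. Day 5 against day 3 gave −0.63 (−0.68 to −0.57), which 12.7% of genes were below. The same subtraction brought this ratio to −0.32, since the 1925 transcripts in its bin of length (1 of 10, with the transcripts ordered by length) had a median of −0.31. Its 5 transcripts, encoding 780 or 777 residues, differed in this ratio by 0.0021. Each has at most 5 bases of its own, so they count nearly the same reads and had to agree.

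Most of the other Mediator subunits had ratios of the opposite sign at the last step. Of the 26 other subunits that matched by name, all past the filter, 22 had ratios above 0 at day 5 against day 3. Their median was 0.13 and their range −0.16 to 0.40, which does not reach the −0.63 of *mdt-15*. No subunit was called in any comparison. The 4 subunits with transcripts longer than that of *mdt-15* (*rgr-1*, *sur-2*, *let-19*, and *dpy-22*) lay between −0.16 and 0.02 in this ratio. Relative to 20°C, *let-19* and *sur-2*, of the kinase and tail modules, were the lowest subunits at day 5, at −0.98 and −0.90.

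*nhr-49* (WBGene00003639, chromosome I, 9869651 to 9874680, plus strand) encodes a nuclear receptor that controls fat oxidation and desaturation in a role like that of mammalian PPARα. Its level was 37.4 FPKM at 20°C, 39.8 at 10°C, and 37.8, 42.5, and 41.7 on days 1, 3, and 5 at 4°C. Both late values exceeded the 20°C value, by log2 ratios of 0.18 (0.11 to 0.25) at day 3 and 0.16 (0.08 to 0.23) at day 5. The 7 transcripts moved alike, between −0.03 and 0.00 at day 5 against day 3. Each has at most 7 bases of its own, so they share most reads and their agreement is no separate check. The levels themselves depend on the transcript, since the shortest one, of 1065 bases, gave the values above and the others averaged between 26.6 and 35.1 FPKM. The receptors *nhr-13*, *nhr-66*, and *nhr-22*, partners of NHR-49, were not called in any comparison, and all of them were below 0 at day 1 against 10°C, with a median of −0.22.

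Of 6 fat oxidation and stress genes that NHR-49 is known to control, 5 passed the filter. At day 1 against 10°C, 1 was called higher and 1 lower, beside 5.49% and 5.42% of all genes. *fmo-2*, for a flavin monooxygenase, was at 0.114, 0.439, 7.42, 20.0, and 6.78 FPKM across the 5 conditions. It was the single gene of the list called higher, with a ratio to 20°C of 6.55 at day 3. *cpt-5*, for a carnitine palmitoyltransferase, had −3.33 at day 1 against 10°C. *acs-2*, for an acyl-CoA synthetase, and *icl-1*, for the glyoxylate cycle enzyme, had −1.58 and −1.47 at day 3 against day 1. At day 5 against 20°C 3 of the 5 were called lower, beside 16.7% of all genes, and *cpt-5* had the lowest ratio, −5.14. *acs-11*, for another acyl-CoA synthetase, lay between 18.7 and 22.8 FPKM and was not called in any comparison.

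*nhr-80* (WBGene00003670, chromosome III, 11985 to 14869, minus strand) encodes a related nuclear receptor that promotes expression of stearoyl-CoA desaturase genes. It was the scarcest of the 7 and had the lowest ratio of them at day 1 against 10°C. Its level was 2.34 FPKM at 20°C, 1.93 at 10°C, and 0.934, 1.31, and 0.800 on days 1, 3, and 5 at 4°C, counted from 293, 254, 125, 166, and 89 reads. All values at 4°C were below both warmer ones, and their Wilson limits did not overlap those at 20°C or 10°C. The log2 ratio to 20°C was −1.24 (−1.53 to −0.96) at day 1 and −1.44 (−1.76 to −1.12) at day 5, both called, with −0.79 (−1.06 to −0.53) at day 3. Day 1 against 10°C gave −0.97 (−1.27 to −0.68), just short of 2-fold, and 5.66% of genes were lower. Day 3 against day 1 gave 0.45 (0.13 to 0.76), above 94.5% of genes. Both transcripts were called at day 1 and day 5 against 20°C. They count nearly the same reads (126 and 125 at day 1), so their agreement is no separate check. At this level the pseudocount matters, and with a pseudocount of 1 the day-1 ratio to 20°C was −0.79.

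*pod-2* (WBGene00004076, chromosome II, 1136785 to 1152705, plus strand) is the enzyme gene of the set and had its peak at 10°C. Its level was 36.6 FPKM at 20°C, 45.4 at 10°C, and 35.9, 26.7, and 13.9 on days 1, 3, and 5 at 4°C. From 10°C on, each value was below the one before, without overlap of limits. The log2 ratio of 10°C to 20°C was 0.31 (0.27 to 0.36), which exceeded 93.0% of genes. At day 5 the ratio was −1.39 (−1.45 to −1.32) against 20°C, or 0.383 times the level, and it was called. Day 5 against day 3 gave −0.93 (−1.0 to −0.86), and 5.98% of genes were lower. All 6 transcripts of *pod-2* were called against 20°C at day 5, and none against day 3, where they lay between −0.99 and −0.93. The transcript used, of 2442 bases and 813 residues, has no base of its own, and the other 5, encoding 2054 or 2165 residues, have at most 16 bases each. Subtracting the median of transcripts of like length gave −1.24 against 20°C and −0.84 against day 3 at day 5. That median was matched on the 2442 bases, whereas the other transcripts are 6461 to 6840 bases long and were not centred by length.

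**Figure D2:**
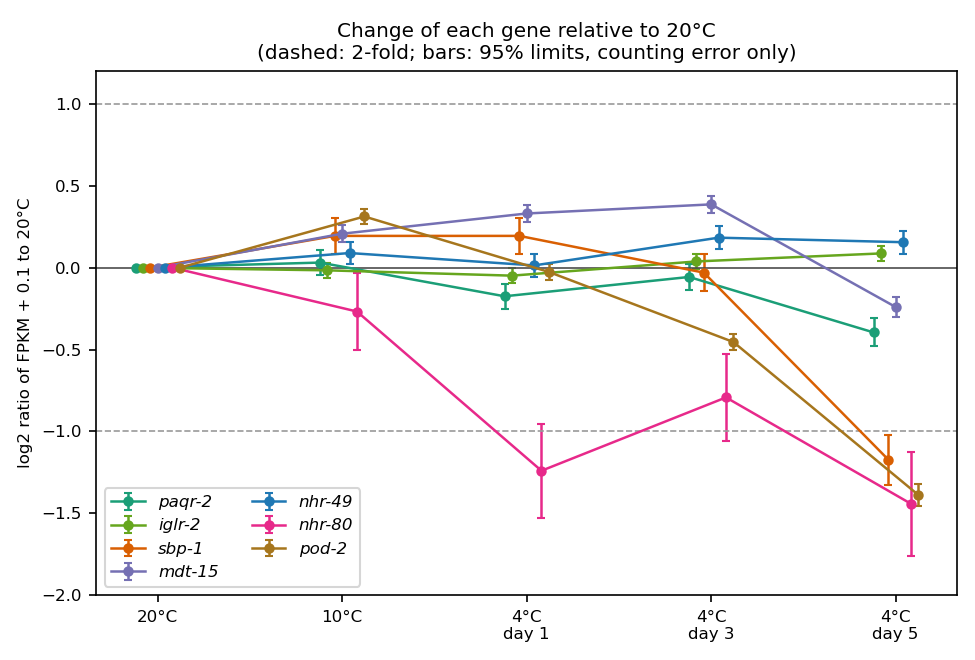
Log2 ratio of FPKM + 0.1 to the 20°C value for the 7 genes at 10°C and at day 1, 3, and 5 at 4°C. Bars are 95% limits for counting error only, and dashed lines mark 2-fold. At day 5 *sbp-1*, *nhr-80*, and *pod-2* lie at −1.17, −1.44, and −1.39, below the lower dashed line. *nhr-80* is below it at day 1 as well.

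Around *pod-2* in fat synthesis, *fasn-1*, the fatty acid synthase that uses its product, had the nearest values at the last step. Its level was 23.9, 20.8, 16.9, 20.9, and 11.7 FPKM over the 5 conditions, and its ratio at day 5 was −0.83 against day 3 and −1.02 against 20°C. It was the single gene of 6 past the filter that was called in any comparison, lower at day 5 against 20°C, as were 16.7% of all genes. The median of transcripts of like length was not subtracted for *fasn-1*, so the part of length in its ratios was not tested. The ATP citrate lyase genes *acly-1* and *acly-2*, the biotin ligase gene *bpl-1*, and *aak-1* and *aak-2*, for the kinase AMPK that inhibits acetyl-CoA carboxylase, lay between −0.31 and 0.10 at day 5 against day 3.

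Set against all genes, the median of the 7 differed most from that of all genes at the last step. At 10°C against 20°C none of the 7 was called, beside 1.27% of all genes called higher and 0.933% called lower, and the median of the 7 was 0.09, beside −0.02 for all genes. At day 1 against 10°C none was called, beside 5.49% higher and 5.42% lower, with a median of −0.08 for the 7 and −0.09 for all genes. At day 3 against day 1 none was called either, beside 1.57% higher and 4.65% lower, with a median of 0.09 for the 7 and −0.03 for all genes. At day 5 against day 3, 1 of 7 was called lower (*sbp-1*) and none higher, beside 4.98% lower and 0.152% higher. There the median of the 7 was −0.63, that of all genes was 0.02, and 6 of 7 were below 0. The −0.63 is the ratio of *mdt-15*, which was −0.32 after the median of transcripts of like length was subtracted. At this step the medians of like length ran from −0.31 (for *mdt-15*) to 0.04 (for *nhr-49*). Those of like mean FPKM ran from −0.37 (for *nhr-80*) to 0.10 (for *nhr-49*).

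Relative to 20°C, 1 of 7 was called lower at day 1 (*nhr-80*), beside 7.32% of all genes lower and 6.78% higher. At day 3 none was called, beside 12.3% lower and 7.46% higher. At day 5, 3 of 7 were called lower (*sbp-1*, *nhr-80*, and *pod-2*) and none higher, beside 16.7% lower and 5.4% higher. The median of the 7 at day 5 was −0.40, against −0.11 for all genes. These 3 comparisons share the 20°C column.

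**Figure D3:**
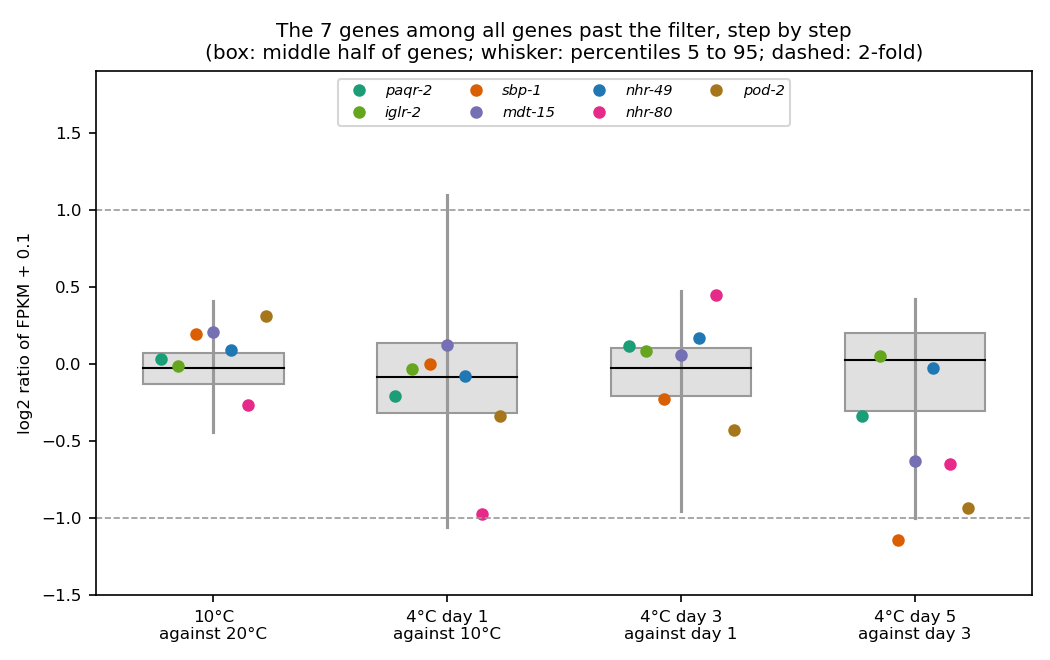
Log2 ratio of FPKM + 0.1 of the 7 genes (points) at each cooling step, over the distribution of the 10509 genes past the filter. Boxes span percentiles 25 to 75, the black line is the median, whiskers span percentiles 5 to 95, and dashed lines mark 2-fold. At day 5 against day 3, *sbp-1* at −1.14 lies below the whisker, which ends at −1.0, and *pod-2*, *nhr-80*, *mdt-15*, and *paqr-2* lie below the box.

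At the step where *sbp-1*, *pod-2*, *mdt-15*, and *nhr-80* were lower, intestine and muscle markers were lower too, whereas most germline markers were not. At day 5 against day 3, 4.98% of all genes were called lower. All 5 of 5 intestine markers were below 0, with a median of −0.88, and 2 were called lower, *elt-2* (−1.53) and *vit-2* (−1.5). Their summed level was 375 FPKM at day 5 and between 913 and 1074 FPKM in the other conditions, and most of it was *vit-2*. Of the muscle markers 4 of 4 were below 0 (median −0.84), with a sum of 142 FPKM at day 5, against 217 FPKM at day 3. Of 4 germline markers 3 were above 0 (median 0.04), with a sum of 856 FPKM, against 809 FPKM at day 3. The neuron markers had a median of −0.19, with 2 above 0, *unc-119* (0.25) and *snb-1* (0.19), and 2 below 0, *ric-4* (−0.57) and *rab-3* (−1.1). Of these *rab-3* was called lower. Their sum was 88.1 FPKM, against 83.3 FPKM at day 3, and most of it was *snb-1*. The 3 hypodermis markers past the filter had a median of −0.32, and 1 was called lower, *elt-3* (−1.85). Of 4 sperm markers 1 passed the filter, at 1.23 FPKM or less. The part of these shifts in the result was not tested. At day 1 against 10°C, where *nhr-80* had −0.97, 3 of 5 intestine markers were below 0, with a median of −0.10. They ranged from −0.88 for *elt-2* and −0.41 for *ges-1* to 0.38 for *act-5*. Their sum was 1074 FPKM, against 961 FPKM at 10°C, of which *vit-2* made up 949 FPKM at day 1 and 852 FPKM at 10°C. Their part in the *nhr-80* result was not tested.

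Among lipid genes of the pathways that these regulators control, 2 of 7 desaturase genes were called lower at day 1 against 10°C, *fat-5* (−4.0) and *fat-6* (−1.11), and none higher. The share of all genes called lower at this step was 5.42%, and the median of the desaturases was 0.02. *fat-5*, a palmitoyl-CoA desaturase, was at 0.617 FPKM at day 1, against 11.3 FPKM at 10°C. *fat-6*, a stearoyl-CoA desaturase, was at 30.2 FPKM, against 65.5 FPKM. *fat-7*, its near-identical paralog, was at 18.3 FPKM, against 18.2 FPKM at 10°C, and reads may be shared between this pair. At day 5 against day 3 no desaturase was called, and their median was −0.09.

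Of 9 elongation genes past the filter 4 were called lower at day 1 against 10°C, beside 5.42% of all genes. They were *elo-6* (−3.09), *elo-5* (−2.21), *elo-2* (−1.55), and *elo-9* (−1.40). The median of the 9 was −0.41, beside −0.09 for all genes. At day 3 against day 1, 4 were called lower, beside 4.65% of all genes, and 8 of 9 were above 0 at day 5 against day 3. Of 9 phosphatidylcholine synthesis genes past the filter 3 were called lower at day 1 against 10°C, beside 5.42% of all genes. They were *sams-1* (−2.87), *cept-1* (−1.68), and *ckb-1* (−1.01). *cept-1* and *pcyt-1* are also among the modifiers of *paqr-2* above, so these lists are not separate. *sams-1*, for S-adenosylmethionine synthetase, was also called higher at day 3 against day 1 (1.11) and lower at day 5 against day 3 (−1.92). Of the 7 regulators, *nhr-80* alone had a ratio near 2-fold at entry, and *sbp-1* and *mdt-15* had 0.00 and 0.12 there.

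**Figure D4:**
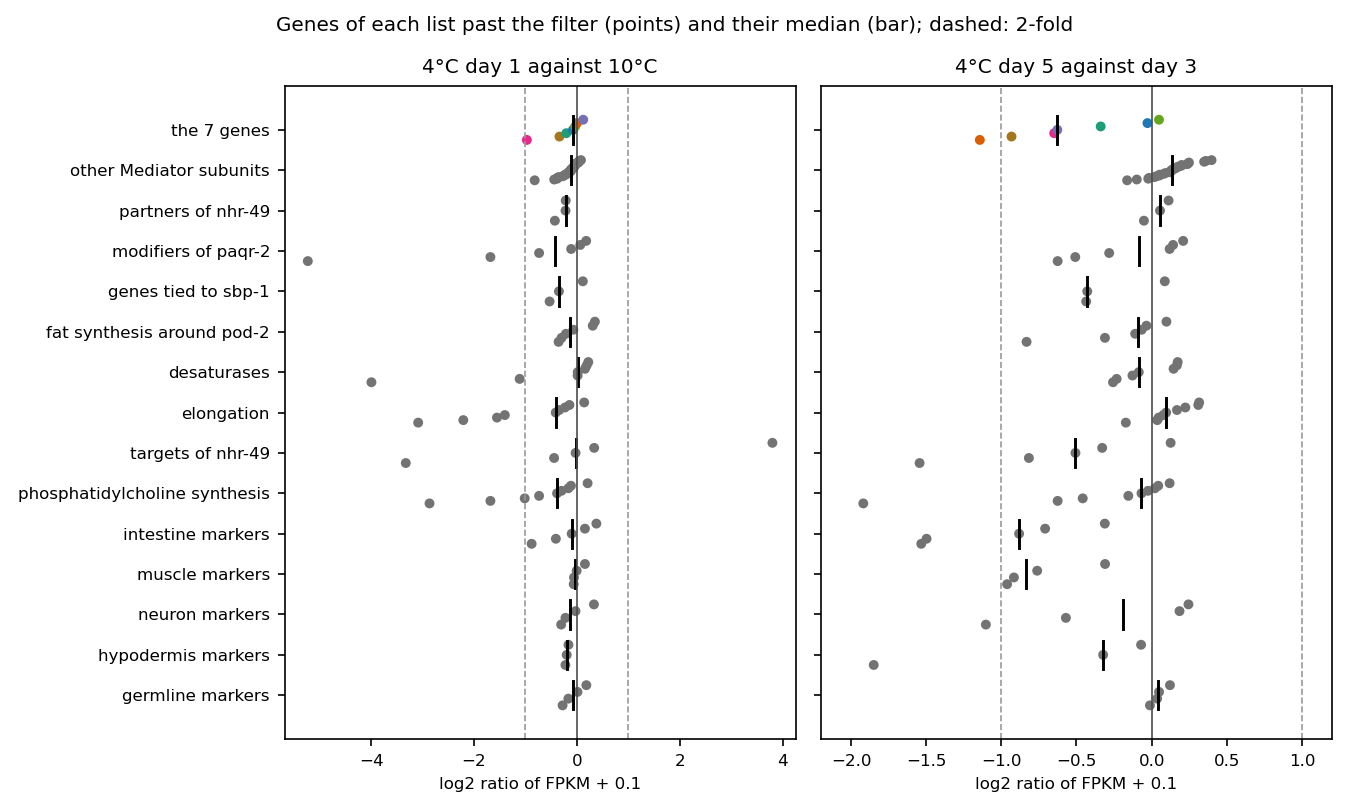
Log2 ratio of FPKM + 0.1 for the 7 genes (coloured points), pathway lists, and tissue markers (grey points, genes past the filter), at day 1 at 4°C against 10°C (left) and day 5 against day 3 (right), with axes of different span. Black bars are medians of each list and dashed lines mark 2-fold. On the right the 7 genes have a median of −0.63 and the other Mediator subunits one of 0.13, and the intestine and muscle markers have medians of −0.88 and −0.84. Ratios are shown without subtraction of the medians of transcripts of like length or mean FPKM.

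The order of the levels changed in the cold. At 20°C *nhr-49*, *pod-2*, and *iglr-2* led at 37.4, 36.6, and 35.1 FPKM, and the limits of neighbours in this order overlapped. Below them, *mdt-15*, *paqr-2*, *sbp-1*, and *nhr-80* followed without overlap. *pod-2* took place 1 at 10°C, place 2 on the first day at 4°C, place 3 on day 3, and place 4 on day 5, where it stood at 13.9 FPKM, against 15.3 FPKM for *mdt-15*. The other 6 kept their order among themselves in all 5 conditions. *nhr-80* was last throughout. At day 1 the limits of *nhr-49* and *pod-2* overlapped too, and otherwise neighbours in the order differed by more than their counting error. The place of *nhr-49* depends on the transcript used, its longest averaging 26.6 FPKM. So does the day-5 order of *pod-2* and *mdt-15*, since *mdt-15* transcripts R12B2.5a.1 and R12B2.5b.2 stood at 13.4 and 13.5 FPKM there.

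The genes nearest in pattern were found by the root mean square difference of log2 values over the 5 conditions, each gene centred on its own mean. Among the 7, the nearly level *iglr-2* and *nhr-49* were nearest to each other, at 0.048. The pairs *paqr-2* and *iglr-2*, *sbp-1* and *pod-2*, *paqr-2* and *mdt-15*, and *paqr-2* and *nhr-49* followed, all at 0.19. For each of *sbp-1* and *pod-2*, the other was the nearest of the 7. Among all genes past the filter, the nearest to *sbp-1* were *nlp-16*, a neuropeptide gene (0.053), *irg-7* (0.081), and *jph-1*, the junctophilin gene (0.086). Those nearest to *pod-2* were *irg-4* (0.059), *pph-1* (0.069), and *pitp-1*, for a phosphatidylinositol transfer protein (0.078). Those nearest to *nhr-80* were *snt-5*, a synaptotagmin gene (0.056), *K08B12.3* (0.079), and *cbl-1* (0.084). Within 0.1 there were 10 genes for *sbp-1*, 10 for *pod-2*, and 4 for *nhr-80*. With 5 points per gene this is a description of likeness.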

How the data were processed

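Total RNA was sequenced with the ScriptSeq kit from the lysates also used for ribosome profiling. The authors ran the ORFik pipeline, trimmed reads with fastp (0.23.4), mapped them with STAR (2.7.11b) to WBcel235, and estimated expression with DESeq2 (1.42.1). The deposited values are FPKM per transcript, 1 column per condition. The annotation release, the use of strand, and the pooling of replicates are not given in the sources used here. 1 further column belongs to no sample and was not used.

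FPKM multiplied by exon length (Ensembl release 115) gave whole reads for all values (tolerance 0.001 reads). Reads that overlap several transcripts are counted in each of them. From these reads 95% limits were computed (Wilson for levels, Clopper-Pearson for ratios). Ratios used a pseudocount of 0.1 and the transcript with the highest mean FPKM, after a filter of FPKM 1 in at least 1 condition (19249 of 31865 transcripts, 10509 of 19985 genes).

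All 7 genes were named with all their transcripts. Of each pathway list, up to 4 genes past 2-fold in a comparison were named, largest first. For the 3 regulators with the widest range, the 3 genes nearest in pattern were named. Other list genes and markers were named after their values were seen. The genes and lists were chosen with earlier results of these data known. Alternatives were pseudocounts of 1 and 0.01, no filter or a filter at FPKM 5, ratios centred on medians (all transcripts, or transcripts of like mean FPKM or like length, in 10 bins), FPKM summed over transcripts, the longest transcript, and a 1.5-fold threshold. Scripts were tested on simulated data. Sequences of the genes were not used here. Analyses ran in Python (3.11.15), with pandas (2.3.3) and numpy (2.4.6) for tables, scipy (1.17.1) for limits and matplotlib (3.10.9) for plots.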

Additional observations from a re-analysis of the deposited data

How the results depend on the processing

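The number of the 7 genes called lower changed under these alternatives, and none was called higher under any. With a pseudocount of 1, 0 were called at day 5 against day 3 and 0 at day 1 against 20°C, and 1 (*pod-2*) at day 5 against 20°C. In the same order, 161, 390, and 1074 of all 10509 genes were called lower. At day 1 against 10°C, *nhr-80* was the 1 gene called with a pseudocount of 0.01, with FPKM summed over transcripts, and at 1.5-fold. Of all 10509 genes, 621 were called lower there with that pseudocount and 577 with the sum. At 1.5-fold the share was at least 5.66%. A filter at an FPKM of 5 removed *nhr-80*, leaving 0 at day 1 against 20°C, beside 252 of 7393 genes called lower. Subtracting the median of transcripts of like length left 0 at day 5 against day 3, with *sbp-1* at −0.99, and also put *sbp-1* short of the threshold against 20°C (−0.96). Of all 10509 genes, 515 and 1618 were called lower in these comparisons. At 1.5-fold, 4 (*sbp-1*, *mdt-15*, *nhr-80*, and *pod-2*) were called at day 5 against day 3 and 1 (*nhr-80*) at day 3 against 20°C. The shares of all genes lower by 1.5-fold were at least 12.7% and 15.7% there, the shares below *mdt-15* and *nhr-80*. Subtracting the median of transcripts of like mean FPKM put *pod-2* past the threshold at day 5 against day 3 (−1.01) and *sbp-1* short of it (−0.90, and −0.89 against 20°C), and brought *nhr-80* to −0.28 at day 5 against day 3. With this subtraction, 271 of all genes were called lower at day 5 against day 3 and 1249 against 20°C. The pseudocount, the filter, and the threshold act by construction, and otherwise the cause was not tested.

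Of 49 ratios (7 genes in 7 comparisons), centring changed the sign of 7 (all transcripts), 6 (transcripts of like mean FPKM), and 7 (like length), each no larger in size than 0.24 before centring. The median of all transcripts was −0.14 at day 5 against 20°C. Column totals that omit the 100 transcripts with the most reads, an alternative chosen after seeing the data, changed no sign. No paired analysis was possible because the columns, 1 for each condition, carry no replicate numbers. For the same reason the spread between replicates limits every difference here, and for *nhr-80*, with 89 to 293 reads, counting error does too.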
